A study of Saccharomyces cerevisiae with 3 samples.

Results

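The strains examined here are yeast deletion strains that lack a gene of peroxisome biogenesis or of peroxisomal fatty acid oxidation. They were taken by gene symbol, as every symbol that is PEX followed by a number, with INP1, INP2, POX1, FOX2, POT1, PXA1, PXA2, CTA1 and ANT1. This gave 36 of the 5325 named genes on the arrays, or 112 of 18794 named probes, and all 36 matched the RefSeq table of yeast genes. FAA2 was also sought by symbol but had no probe among the named probes, so it was not analysed.

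Peroxisomes are organelles with a single membrane that import folded enzymes from the cytosol. Receptors bind a targeting signal on the enzyme, dock at the membrane, release the enzyme inside and are pulled back to the cytosol after they are tagged with ubiquitin. In budding yeast peroxisomes are the site of fatty acid beta-oxidation, and cells that lack them fail to grow on oleate but grow on glucose.

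The samples were 3 arrays of Saccharomyces cerevisiae, budding yeast, from a screen around CIN8, which encodes a mitotic kinesin of the spindle. Per the labels, a pool of heterozygous diploid deletion strains was transformed with a cassette that replaced CIN8 with URA3 and was then sporulated. Haploids grown on minimal medium that held 5-fluoroorotic acid (5-FOA, toxic to URA3 cells) formed the pool of single mutants, and haploids selected on plates without uracil formed the pool of double mutants, which lack CIN8 as well. Both pools were harvested after 2 days at 30 °C. Single mutants were labelled with Cy5 and double mutants with Cy3 on all 3 arrays, and experiments 1, 2 and 3 used 0.1, 0.15 and 0.2% 5-FOA. Each strain carries a pair of DNA tags whose abundance stands for that of the strain. All strains share the pooled transformation, so no strain was tested alone. The labels do not name separate transformations or sporulations, and p-values therefore rest on the spread of these 3 arrays alone, which can be technical.

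Values are deposited log2 ratios of the 2 pools, centred per array and tag set, averaged over spots and then over the 2 tags. They are given as mean ± SD over the 3 arrays. A strain was called when limma's Benjamini-Hochberg adjusted p over all 5204 strains tested was under 0.05. The direction of the deposited ratio is not given in the sources used here. Strains lacking KIP1, the partner kinesin of CIN8, or the uracil biosynthesis genes URA1, URA2, URA4 and URA5 were all called positive, and the CIN8 strain was called negative. Positive is thus the side of the KIP1 and uracil strains. Because the sources do not state the direction, the sign is reported as deposited, and no pool is assigned to a side. No intensities were used here, so signal over background cannot be given, and precision is limited by having 3 arrays.

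Of the 36 peroxisome strains, 17 were called, 15 of them positive and 2 negative, where 33.6% of all strains tested were called. This is 41.7% positive, beside 16.2% of all strains tested, and 5.56% negative, beside 17.4% of all strains. The pool began as heterozygous diploids, so strains of essential genes can be among all strains tested. They were not set apart, and the shares over all strains may not be a like baseline. The strains with the largest positive means lacked PEX14 and PEX13 of the docking complex, PEX8, PEX6 or the thiolase gene POT1. INP1 and POX1 were the 2 negative strains. The median of the 36 means was 0.48, against -0.10 over all 5204 strains, and 23 of the 36 were above 0 on every array (63.9%; 32.6% of all strains) and 4 below it (37.9% of all strains). Both tags on their own called 10 of the 30 strains that had both tags on all arrays positive, or 33.3%, beside 11.2% of all strains, and 0 negative (5.71%). A total of 6 were called positive at 2-fold or more (16.7%), beside 5.34% of all strains, and 0 were called negative at that size (9.47% of all strains).

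The strains were chosen with earlier results of these data known, and these counts carry no test of the list. With any of experiments 1, 2 or 3 left out, limma called 0 of the 36 strains and 0 of all strains. The smallest adjusted p among the 36 was then 0.0758, 0.0610 and 0.0732, and 16, 19 and 17 of them had an unadjusted p under 0.05. Without centring the calls were 12 positive (11.6% of all strains) and 4 negative (24.2% of all strains), so that 75.0% of the calls were positive in place of 88.2%, while over all strains the share was 32.3% in place of 48.2%.

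**Figure D1:**
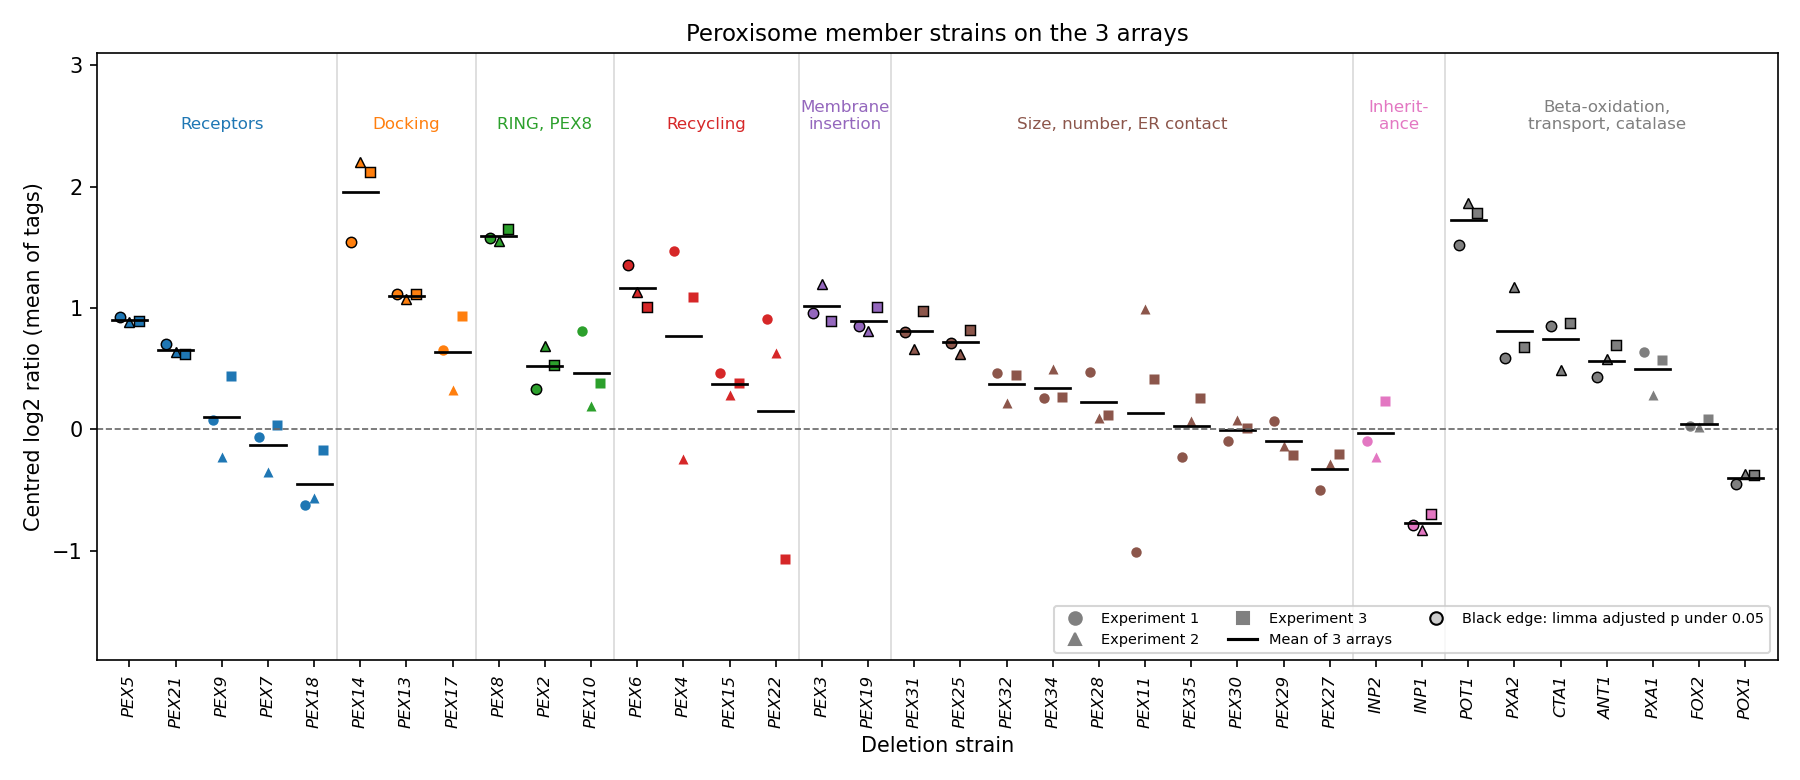
Centred log2 ratio (vertical axis, mean of the tags) of the 36 peroxisome strains (horizontal axis, by role and by mean), with 1 symbol per experiment and a bar at the mean of 3 arrays. Black edges mark the 17 strains called by limma, of which 15 lie above 0, and PEX4, PEX22 and PEX11 have the widest spread.

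The receptors carry enzymes to the membrane. PEX5, the receptor for the C-terminal targeting signal PTS1 that most peroxisomal enzymes carry, gave 0.92, 0.88 and 0.89 in experiments 1, 2 and 3. Its mean of 0.90 ± 0.02 (n = 3) was 1.87-fold from 0 (limma, adjusted p = 0.0140), and tag set A (1.11 ± 0.03) and tag set B (0.69 ± 0.04) were each called. PEX7, the receptor for the N-terminal signal PTS2, gave -0.06, -0.35 and 0.04 and was not called (-0.13 ± 0.20; limma, adjusted p = 0.457). The PEX5 and PEX7 values did not overlap, and PEX5 was the higher in all 6 pairs of tag and array, by 1.02 ± 0.20 on the log2 scale.

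PEX18 and PEX21 encode a pair of related co-receptors that act with PEX7. The PEX21 strain gave 0.71, 0.63 and 0.62, was called positive (0.65 ± 0.05; limma, adjusted p = 0.0205) and was called by both tags. The PEX18 strain gave -0.62, -0.56 and -0.17 and was not called (-0.45 ± 0.25; limma, adjusted p = 0.0830). The groups of values did not overlap, but the PEX18 measurement was uneven. Its probes are spotted 6 times per tag, 5 spot values were empty, 1 stood at a placeholder ratio, and in tag set B of experiment 3 the spots ran from -2.49 to 3.46. For PEX7, which is also spotted 6 times per tag, the SD over spots was at most 0.14, and the low value of experiment 2 came from tag set A, at -0.64 against 0.17 and 0.12 in the other experiments. PEX9, a relative of PEX5 induced on oleate, gave 0.08, -0.23 and 0.44 (0.10 ± 0.34, not called), with tag set B at a placeholder ratio in experiment 3.

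At the membrane the loaded receptor meets the docking complex of PEX13, PEX14 and PEX17. All 3 strains were above 0 on every array (32.6% of all strains) and 2 were called, both positive (16.2% of all strains). PEX14 had the highest mean of the 36 strains, with 1.54, 2.21 and 2.12 in experiments 1, 2 and 3, and 1.95 ± 0.36 over the arrays, or 3.88-fold (limma, adjusted p = 0.0138). Its tags gave 2.05 ± 0.35 and 1.86 ± 0.37, and 98.4% of all strains had a lower mean. PEX13 gave 1.11, 1.07 and 1.11, an SD of 0.02 about a mean of 1.10 (limma, adjusted p = 0.0120), although tag set A (1.49 ± 0.20) lay above tag set B (0.70 ± 0.25). PEX17 gave 0.65, 0.32 and 0.93 and missed the threshold (0.64 ± 0.31; limma, adjusted p = 0.0576), with like means of 0.63 and 0.64 in its tags. PEX14 lay above PEX17 in all 6 pairs of tag and array, by 1.32 ± 0.51.

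PEX8 lies inside the peroxisome and links the docking complex to RING finger proteins such as PEX2 and PEX10, ubiquitin ligases of the receptors. The PEX8 strain gave 1.58, 1.55 and 1.65. Its mean of 1.60 ± 0.05 was 3.02-fold from 0 (limma, adjusted p = 0.0097), and its tags gave 1.60 ± 0.19 and 1.59 ± 0.09. The RING strains were closer to 0. PEX2 gave 0.33, 0.69 and 0.53 and was called at 0.52 ± 0.18 (limma, adjusted p = 0.0466), by tag set A alone of its tags. PEX10 gave 0.81, 0.19 and 0.38 and was not called (0.46 ± 0.32; limma, adjusted p = 0.109), with tag set B (0.70 ± 0.07) called and tag set A (0.22 ± 0.59) not.

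Receptors return to the cytosol through the ubiquitin-conjugating enzyme PEX4, its membrane anchor PEX22, and the ATPase PEX6 with its anchor PEX15. Of these 4 strains PEX6 alone was called (positive, as were 16.2% of all strains), and the tags of all 4 were uneven or incomplete. PEX6 gave 1.35, 1.13 and 1.01 (1.17 ± 0.17; limma, adjusted p = 0.0143), but tag set B (1.97 ± 0.04, called) was far above tag set A (0.36 ± 0.31, not called). PEX15 gave 0.46, 0.29 and 0.38 (0.38 ± 0.09; limma, adjusted p = 0.0561), with tag set B called at 0.65 ± 0.09 and tag set A at 0.10 ± 0.27.

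PEX4 and PEX22 were not called when tags were averaged, at 0.77 ± 0.90 and 0.16 ± 1.07. Tag set A was measured on all arrays and was called positive for each, with 1.47, 0.81 and 1.36 for PEX4. For PEX22 the values of tag set A were 0.91, 0.63 and 0.77. Tag set B of PEX4 gave -1.31 and 0.83 in experiments 2 and 3 and no value in experiment 1, and tag set B of PEX22 gave -2.91 in experiment 3 alone. The averages of these strains thus mix different tags on different arrays.

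PEX3 and PEX19 insert proteins into the peroxisomal membrane, and yeast cells without either lack recognisable peroxisomes. Both strains were called positive (16.2% of all strains), and by both tags (11.2% of all strains). PEX3 gave 0.96, 1.20 and 0.89 (1.02 ± 0.16; limma, adjusted p = 0.0159). PEX19 gave 0.85, 0.81 and 1.01 (0.89 ± 0.11; limma, adjusted p = 0.0159), with tag set A (0.42 ± 0.06) below tag set B (1.36 ± 0.16). Over the receptor, docking, RING, recycling and insertion groups together, 9 of 17 strains were called positive and 0 negative, beside 16.2% and 17.4% of all strains. Of the 14 with both tags on all arrays, 7 were called positive by both tags (11.2% of all strains) and 0 had tags of opposite sign (26.9% of all strains). The strains outside the 14, which lacked tag set B on some array, did have tag means of opposite sign. Tag sets A and B gave 1.21 and -0.24 for PEX4, 0.30 and -0.37 for PEX9, and 0.77 and -2.91 for PEX22.

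**Figure D2:**
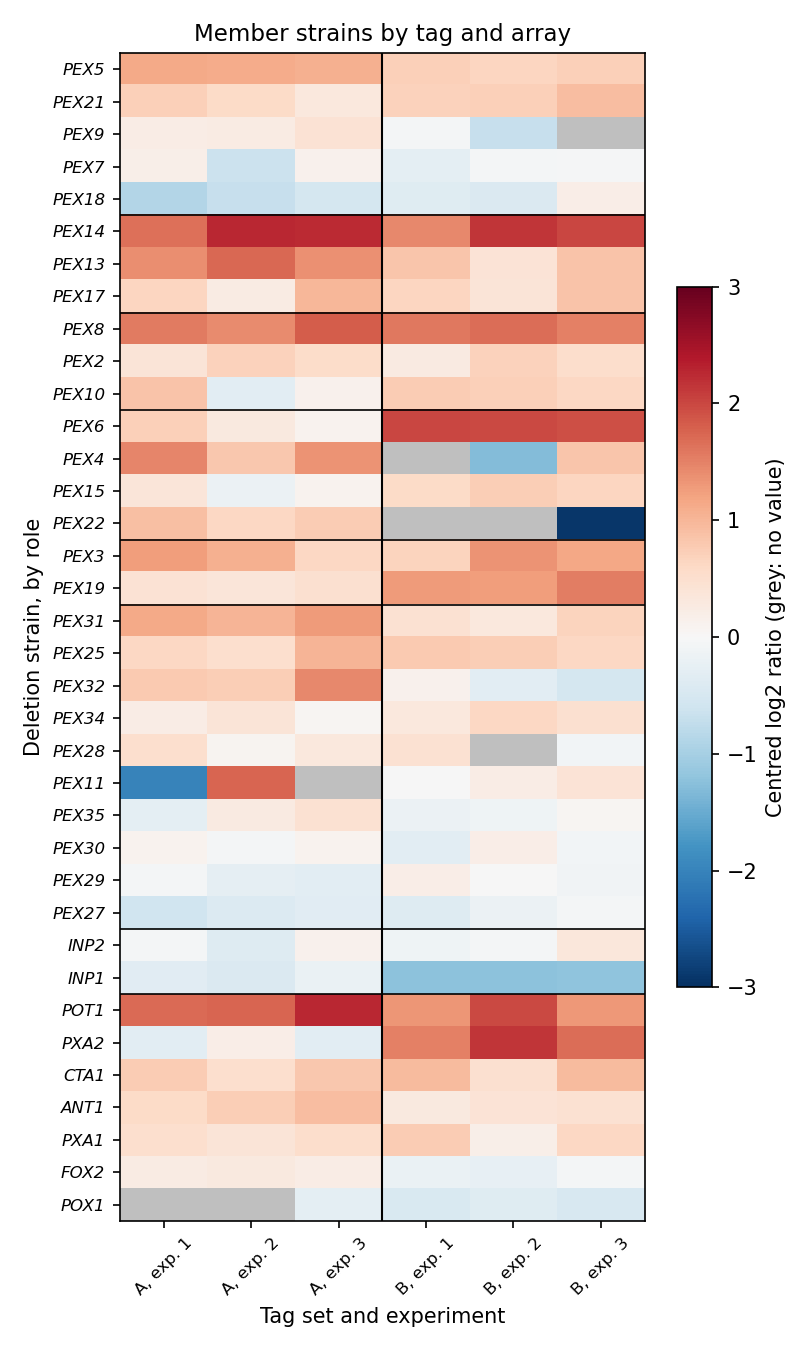
Centred log2 ratios of the 36 strains (rows, grouped by role) in each tag set and experiment (columns), with red above 0, blue below 0 and grey where no value was used. PEX14, PEX8 and POT1 are red in all 6 columns, whereas PEX6 and PXA2 are far redder in tag set B than in tag set A.

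Among genes that set the size, the number and the contacts of peroxisomes, 2 of 10 strains were called positive (20.0%; 16.2% of all strains) and 0 negative (17.4% of all strains). Their median was 0.18, beside 0.65 over the 17 strains of the import and insertion groups, a difference that was not tested. PEX25, a membrane elongation factor, gave 0.71, 0.62 and 0.82 (0.72 ± 0.10; limma, adjusted p = 0.0204) and was called by both tags. Its relative PEX27 gave -0.49, -0.29 and -0.21 (-0.33 ± 0.15; limma, adjusted p = 0.0927), 1.05 ± 0.15 below PEX25, with no overlap. The third relative, PEX11, gave -1.01, 0.99 and 0.42, and these rest on tag set A values of -2.00 and 1.76 in experiments 1 and 2 with no value in experiment 3. Tag set B of PEX11 gave -0.02, 0.22 and 0.42 in experiments 1, 2 and 3 (0.21 ± 0.22, not called).

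PEX28, PEX29, PEX30, PEX31 and PEX32 encode membrane proteins that limit peroxisome number or size and act at contacts with the endoplasmic reticulum. PEX31 alone of these was called, with 0.80, 0.66 and 0.98 (0.81 ± 0.16; limma, adjusted p = 0.0207). It was called by tag set A (1.14 ± 0.13) and not by tag set B (0.49 ± 0.18; limma, adjusted p = 0.0565). PEX30, its close relative, lay at 0.00 ± 0.09, and PEX31 was higher in all 6 pairs of tag and array. The tags of PEX32 differed in sign, at 0.99 ± 0.39 and -0.23 ± 0.34, so that its mean of 0.38 describes neither tag. PEX28, PEX29, PEX34 and PEX35 were not called and had means from -0.09 to 0.34.

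INP1 keeps peroxisomes in the mother cell, and INP2 links them to the myosin that carries them into the bud. INP1 was negative on every array, with -0.79, -0.83 and -0.70 in experiments 1, 2 and 3 (-0.77 ± 0.07; limma, adjusted p = 0.0172). Most of this came from tag set B (-1.22 ± 0.01, called), while tag set A gave -0.32 ± 0.12 and was not called. INP2 gave -0.09, -0.22 and 0.23 and was not called (-0.03 ± 0.24; limma, adjusted p = 0.874).

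The enzymes of beta-oxidation did not share a level. POX1 encodes acyl-CoA oxidase, the entry step, FOX2 the enzyme of the middle steps, and POT1 the thiolase that releases acetyl-CoA and that PEX7 imports. POT1 gave 1.52, 1.86 and 1.78, with a mean of 1.72 ± 0.18 that was 3.30-fold from 0 (limma, adjusted p = 0.0106). It was called by both tags (1.90 ± 0.31 and 1.54 ± 0.39), and the SD over its 6 spots per tag was at most 0.15 on each array. FOX2 gave 0.03, 0.02 and 0.09 and was not called (limma, adjusted p = 0.680), with 0.26 ± 0.03 and -0.16 ± 0.10 in its tags. POX1 gave -0.45, -0.37 and -0.38 and was called negative (-0.40 ± 0.05; limma, adjusted p = 0.0448), from tag set B on all arrays and tag set A in experiment 3 alone. POT1 exceeded FOX2 by 1.68 ± 0.18 and POX1 by 2.12 ± 0.13, with no overlap of values.

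PXA1 and PXA2 form the transporter that brings long-chain acyl-CoA into the peroxisome. PXA2 gave 0.59, 1.17 and 0.68 and was called positive (0.81 ± 0.31; limma, adjusted p = 0.0383), but its tags disagreed. Tag set A gave -0.32, 0.19 and -0.32 and tag set B 1.51, 2.15 and 1.67, and since each is a mean over 6 spots with an SD of at most 0.37, the gap between tags exceeded the spread between spots. PXA1 gave 0.63, 0.29 and 0.57 with like means of 0.47 and 0.52 in its tags, and missed the threshold (0.50 ± 0.19; limma, adjusted p = 0.0518). CTA1, the catalase that removes the hydrogen peroxide formed by POX1, gave 0.85, 0.49 and 0.88 and was called by both tags (0.74 ± 0.22; limma, adjusted p = 0.0298). ANT1, which exchanges adenine nucleotides across the membrane, gave 0.43, 0.58 and 0.69 and was called by tag set A alone of its tags (0.57 ± 0.13; limma, adjusted p = 0.0325).

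The comparisons between strains with related roles given above (PEX5 with PEX7, PEX21 with PEX18, PEX14 with PEX17, PEX25 with PEX27, PEX31 with PEX30, POT1 with FOX2 and POX1) were chosen after the values were seen and carry no test. INP1 with INP2 and PEX6 with PEX15, also compared, did not overlap. PXA2 and PXA1 did overlap, with PXA2 higher in 3 of 6 pairs of tag and array and a difference of 0.32 ± 0.50.

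**Figure D3:**
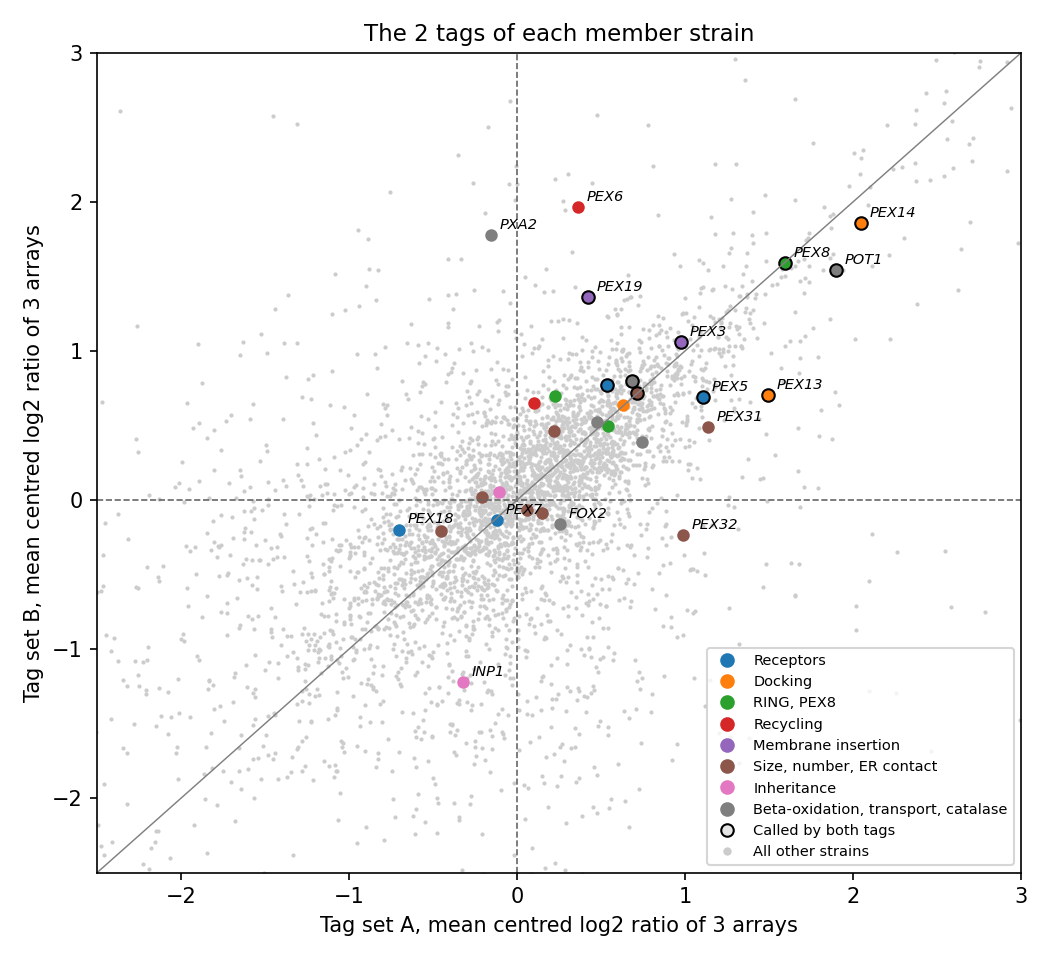
Mean centred log2 ratio over 3 arrays in tag set A (horizontal axis) and tag set B (vertical axis) for the 30 peroxisome strains with both tags on all arrays (colours by role) and for the other strains (grey); axes end at -2.5 and 3, and strains beyond are not drawn. The 10 strains with black edges were called by both tags and all lie above 0 on both axes, while PXA2, PEX6 and PEX32 lie far from the diagonal.

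The agreement of tags and arrays was close to that of the whole pool. The median absolute difference between tags was 0.24 among the 30 strains and 0.33 over all 4293 strains with both tags. A total of 7 of the 30 had tags of opposite sign (23.3%; 26.9% of all strains). Across the 30 strains, which share libraries and arrays, Pearson's r between tags was 0.58 and Spearman's rho 0.54, and over all strains they were 0.48 and 0.56. Between pairs of arrays r across the 36 strains was 0.70 to 0.77. None of the 36 strains had a value at the lowest deposited ratio.

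The 5-FOA percentage was examined as a trend over the 3 experiments. Limma called 0 of the 36 strains and 0 of all strains, and 0 of the 36 had an unadjusted p under 0.05, beside 5.05% of all strains. The fit has 1 residual degree of freedom, each percentage was used in 1 experiment, and percentage and experiment cannot be told apart. With the percentage as a covariate, PEX8 and POT1 remained called at an adjusted p of 0.0492 each, and the other 15 did not (1.75% of all strains were then positive and 2.63% negative). With the tag value nearer 0 on each array (0 where the tags differ in sign), PEX14, PEX19, PEX25, PEX5, PEX8 and POT1 were called, all positive (16.7%; 7.01% of all strains, and 4.42% negative).

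Strains of genes next to the called members were read beside them, because a deletion can touch its neighbour. Neighbouring strains of essential genes were not set apart. None of the 36 genes lies on chromosome V, which carries CIN8. Of 30 neighbouring strains tested around the 15 positive members, 10 were called positive (33.3%; 16.2% of all strains) and 3 negative (17.4% of all strains), with a median of 0.06. With the neighbours of INP1 and POX1 the counts were 10 positive and 6 negative of 33, with a median of -0.12. The neighbours of POT1 on chromosome IX had values close to that of POT1. SMU2 stood at 1.44 ± 0.26 (limma, adjusted p = 0.0146) and BNR1, a formin that nucleates actin filaments, at 1.68 ± 0.12 (limma, adjusted p = 0.0097), each called by both tags. YIL165C (1.90 ± 0.30), NIT1 (0.82 ± 0.27) and COA1 (0.94 ± 0.14), within 5 genes of POT1, were also called positive by both tags, whereas SUC2, AIM20 and UBP7 were not called. This stretch of genes was examined after the values were seen. The part of the neighbours in the POT1 value was not tested.

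PEX14 had a higher mean than its neighbours, LYS5 (0.57 ± 0.15) and NUT1 (0.84 ± 0.26), which were also called positive. PEX8 lies between MRPL25 (0.41 ± 0.06, called) and PAC10, a prefoldin gene that stood at 1.26 ± 0.30 (called), with -0.66 in tag set A against 3.18 in tag set B. The neighbours of PEX13 (MMR1 at 0.14 and HCR1 at -0.52) and of PEX3 (SKP1 at -1.49 and UBX5 at -0.12) were not called. SKP1 lacked tag set A on some array. PEX6 was positive beside RPD3, which was called negative at -1.65.

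Some neighbours had the sign of the member and lay farther from 0 than it did. Both neighbours of INP1, TOM40 (-1.004) and PFK2 (-1.28), were called negative, as was CHC1 (-2.13), the tested neighbour of POX1. TOM40 lacked tag set B on some array, and its tag set A mean was -1.60. Both neighbours of PEX2, OPT1 (0.60) and CBP1 (0.77), were called positive, as was KEL2 (1.74) beside PEX21. MNN10 beside PEX5 was also called positive, at 0.95 against 0.90 for PEX5. RKM4 beside CTA1 stood at 1.54 and was not called (limma, adjusted p = 0.122). The part of these neighbours in the values of INP1, POX1, PEX2, PEX21, PEX5 and CTA1 was not tested. Across all 4643 pairs of adjacent genes, Pearson's r between the means was 0.06 and Spearman's rho 0.08.

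**Figure D4:**
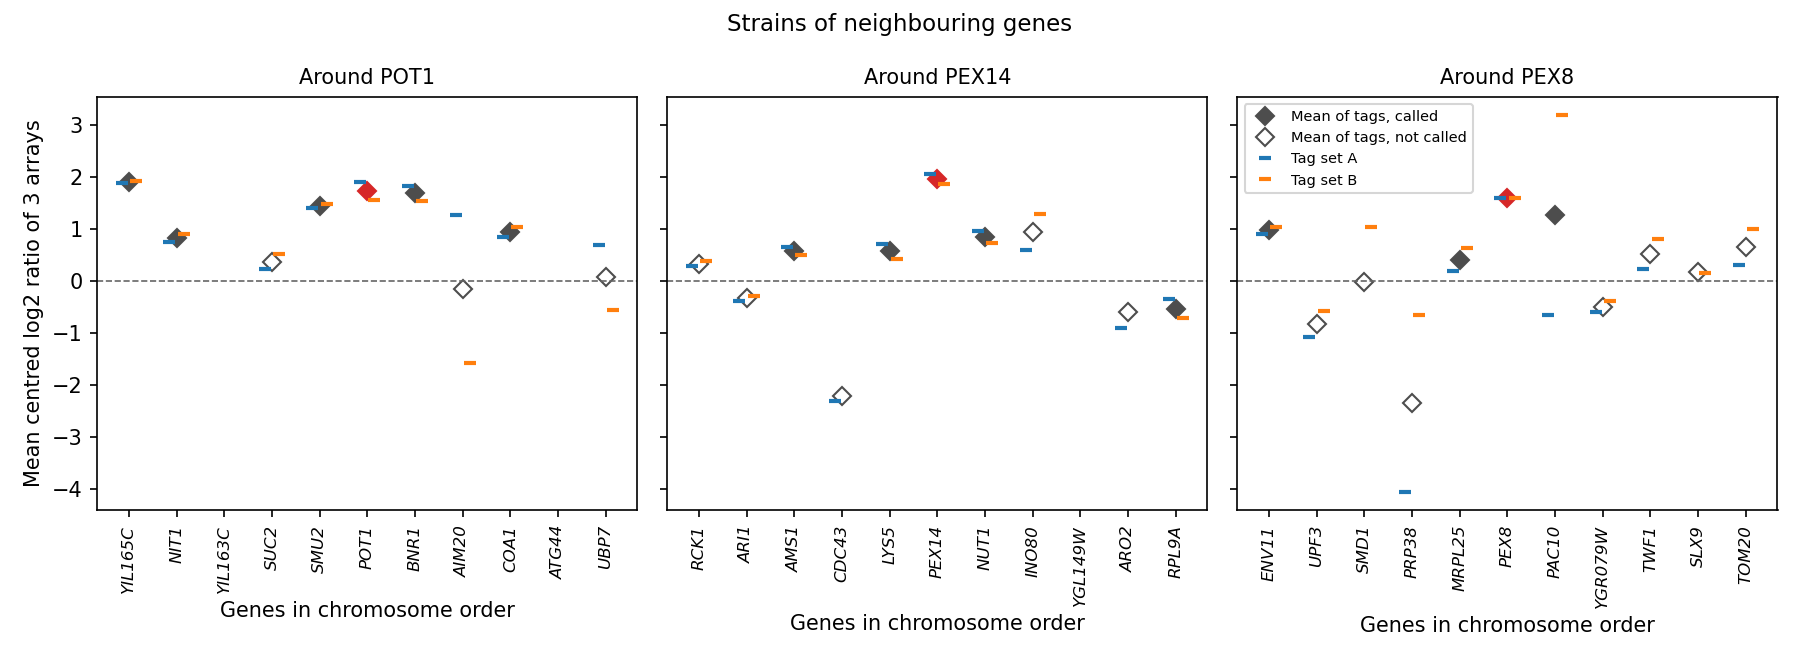
Mean centred log2 ratio over 3 arrays (vertical axis) for strains of the genes in chromosome order, 5 on each side of POT1, PEX14 and PEX8 (red); filled diamonds were called by limma, open ones were not, and short bars give each tag set measured on all arrays. BNR1 lies at the level of POT1 in both tags, and SMU2 lies below POT1 in tag set A (1.40 against 1.90). The means of PEX14 and PEX8 lie above those of both of their neighbours.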

How the data were processed

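The authors deposited log2 ratios, 1 per probe and array, from images read with GenePix 5.1 per the labels. Formula, scaling and direction are not given in the sources used here. Array and tag set medians were -0.18 to -0.15. The named probes form 2 blocks of 9397, offset by 10971 identifiers and naming the same genes, treated as tag sets A and B. A set of 36 values at a ratio of 999999 (next highest 1692) was left out. Of the 336 values of the members, 12 were empty and 2 were such placeholders. The members had 2 probes (32 genes) or 12 (4 genes), and 6 lacked a tag on some array.

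Values were centred per array and tag set and averaged over spots, then tags. Strains with values on all 3 arrays were fitted on an intercept with lmFit and eBayes (limma 3.58.1, R 4.3.3), two-sided, and adjusted by Benjamini-Hochberg. The same fit was run on each tag set, and a strain counted as called by both tags when each called it in the same direction. The fit was tested on simulated data. Python 3.11.15 with numpy 2.4.6 and pandas 2.3.3 made the tables, and matplotlib 3.10.9 the plots. Neighbours were taken by order in the RefSeq table of assembly R64. The members and lists were chosen with earlier results of these data known. All members were named, and from the other lists up to 3 called genes per direction with the largest absolute mean. KIP1, CIN8 and the uracil strains were named for the sign only. Neighbouring strains, OAF1 and members compared in pairs were named after their values were seen.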

Additional observations from a re-analysis of the deposited data

How the results depend on the processing

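Leaving out experiments 1, 2 or 3 left fewer arrays in the fit. It gave 0 calls among the peroxisome strains, the other lists and all strains, in total and on either side. The means of the 17 called strains then kept their sign. With the 5-FOA percentage as covariate and 1 residual degree of freedom left, calls were 2 among the peroxisome strains (2 positive, 0 negative), 1 in the other lists (1 and 0) and 228 of all (91 and 137). The tag value nearer 0 gave 6 (6 and 0), 3 (3 and 0) and 595 (365 and 230). Negative calls among the peroxisome strains were 4 without centring, and 1 each with tag set A alone, both tags on all arrays, and trended robust eBayes. Without centring 3 calls in the other lists were positive, and with tag set B alone 3 were negative. Of 528 values of the 36 means over 15 settings, 400 kept sign and call, 86 lost a call, 19 gained one and 23 changed sign. Of the 23, PXA2 alone was a called strain, at -0.15 in tag set A. The other sign changes were of strains not called. Without centring FOX2 was -0.12, PEX11 -0.030, PEX22 -0.010, PEX35 -0.13 and PEX9 -0.070. PEX35 was -0.042 with the tag value nearer 0. PEX30 was 0.057 in tag set A. In tag set B, FOX2 was -0.16, INP2 0.052, PEX29 0.021, PEX32 -0.23 and PEX35 -0.087. PEX18 was 0.23 with placeholders kept. With an experiment left out, INP2 ran from -0.16 to 0.070, PEX22 from -0.22 to 0.77, PEX30 from -0.042 to 0.044, PEX11 from -0.30 to 0.70, PEX35 from -0.080 to 0.16 and PEX9 from -0.074 to 0.26. The causes were not tested. No paired analysis was possible because all arrays form 1 group.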

Other observations

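Genes of related function that were not among the peroxisome strains above, some of them acting outside the peroxisome, went both ways. Of 37 such strains tested, 6 were called positive and 6 negative, a share of calls close to the 33.6% of all strains, with a median of 0.16. OAF1 had a value in experiment 2 alone and was not tested. Among 16 strains of other matrix enzymes, 3 were positive and 3 negative. AAT2, an aspartate aminotransferase found in peroxisomes on oleate, stood at 5.39 ± 0.30 (limma, adjusted p = 0.0081), by both tags. It was followed by SPS19, a dienoyl-CoA reductase, at 0.89 ± 0.31, and IDP3, an isocitrate dehydrogenase that supplies NADPH, at 0.61 ± 0.16. For SPS19 (tags at 0.62 and 1.16) and IDP3 (tags at 0.48 and 0.75), tag set B alone of the tags was called. MLS1, malate synthase, was negative at -1.62 ± 0.79 with tags at -2.98 and -0.25, PCS60, an acyl-activating enzyme, at -0.51 ± 0.07 with tags at -0.85 and -0.16, and GPD1, a glycerol 3-phosphate dehydrogenase, at -0.48 ± 0.04 with tags at -0.999 and 0.038.

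In the glyoxylate and carnitine list, with 7 strains tested, ACO1, aconitase, was negative at -2.11 ± 0.42 by both tags and YAT1, a carnitine acetyltransferase, positive at 0.47 ± 0.12 from tag set A alone. FAA1, an acyl-CoA synthetase of fatty acid uptake, was negative at -0.58 ± 0.14, the 1 call among 4. Tag set A alone of its tags was called. Of 5 oleate response regulators SNF4, a subunit of the Snf1 kinase, was positive at 1.34 ± 0.26 by both tags. Of 5 fission strains VPS1, a dynamin-like GTPase of peroxisome fission and vacuolar sorting, was negative at -1.42 ± 0.53 by both tags. MDV1, an adaptor of the dynamin DNM1, was positive at 0.48 ± 0.13, with tag set A alone of its tags called.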
